A study of Mus musculus with 5 samples.

Results

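The 43 genes described here encode the core machinery of DNA replication. They were chosen by symbol, with earlier results of these data known. All 43 were present among the 40879 gene symbols of the count tables. RNA came from BV-2, a mouse microglial cell line, and was measured by QuantSeq, a 3′-end method that primes on poly(A) and reads single ends of 75 bp. There were 5 libraries, 1 per group. The control was labelled as normal, with no agent named and no vehicle given. The UPM group received urban particulate matter at 50 µg/mL for 23 h. In the other groups TZ at 1.25, 2.5 or 5 µg/mL was added 1 h before the same particles, and TZ is read here as trazodone, an antidepressant, from the title of the series. All groups are cultures of a single immortalised line, which divides continuously, so they model dividing microglia rather than resident brain microglia.

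Replication begins when the origin recognition complex, Cdc6 and Cdt1 load the Mcm2 to Mcm7 ring onto DNA in G1. In S phase Cdc45 and the GINS complex turn the ring into an active helicase, polymerase alpha with primase starts each strand, and polymerases delta and epsilon extend it on the sliding clamp PCNA. RPA covers single-stranded DNA, Fen1 and Lig1 join Okazaki fragments, ribonucleotide reductase and thymidylate synthase supply deoxynucleotides, and CAF-1 places histones behind the fork. Many of these genes are targets of E2F transcription factors and are transcribed mostly around the G1 to S transition, so their mRNA is widely used as a sign of cycling cells.

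Library totals ran from 6829720 to 7696168 counts. Summed over 14 microglia and macrophage markers the level was 4354 to 4825 CPM (counts per 1000000 counts; marker sums use library totals and other values also TMM factors), with Csf1r at 586 to 725 CPM, while Tmem119 was at 3.06 to 7.45 CPM and P2ry12 at 0.666 to 1.60 CPM. Marker sums of astrocytes, neurons, oligodendrocytes and fibroblasts were each at most 3.95 CPM in every library. The 5 endothelial markers summed to 14.1 to 16.8 CPM. Small nucleolar RNAs, which mostly lack poly(A), took 0.117% (control), 0.145% (UPM), 0.135% (TZ 1.25), 0.0914% (TZ 2.5) and 0.0651% (TZ 5) of all counts. In bulk RNA, fewer S-phase cells and less RNA per cell cannot be told apart.

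The replication genes as a set differed little between the libraries. Their summed level was 4093 CPM (95% exact Poisson interval 4047 to 4139) in control cells and 3880 (3836 to 3924) with UPM alone, and 3988 (3942 to 4034), 3899 (3852 to 3946) and 3879 (3833 to 3926) at the rising doses of TZ. The control stood highest, and the intervals of UPM, TZ 2.5 and TZ 5 overlapped. Scaled by total counts only, TZ 2.5 was at 3955 CPM and UPM at 3857. Without Mcm7, whose level is given below and which was left out after its values were seen, the sum was 3590 (3547 to 3633) in control cells, 3373 (3332 to 3414) with UPM alone, and 3552 (3508 to 3595), 3568 (3524 to 3613) and 3554 (3510 to 3599) at the rising doses of TZ. For these 42 genes UPM stood below the other 4 libraries, whose intervals overlapped. All intervals here cover counting error only, since each group is 1 library. They may be too narrow even for that, because no molecular identifiers are named and reads may be copies of 1 molecule. The ratio of a member's highest library to its lowest had a median of 1.27, against 1.29 over the 8341 genes with a mean of at least 10 CPM, and reached 1.5 in 5 members (11.6%, against 16.8% of those genes). The heat map of all 43 members shows most rows pale, with Mcm7, Fen1, Rpa2, Rpa3 and Rfc4 as the rows of widest range.

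**Figure D1:**
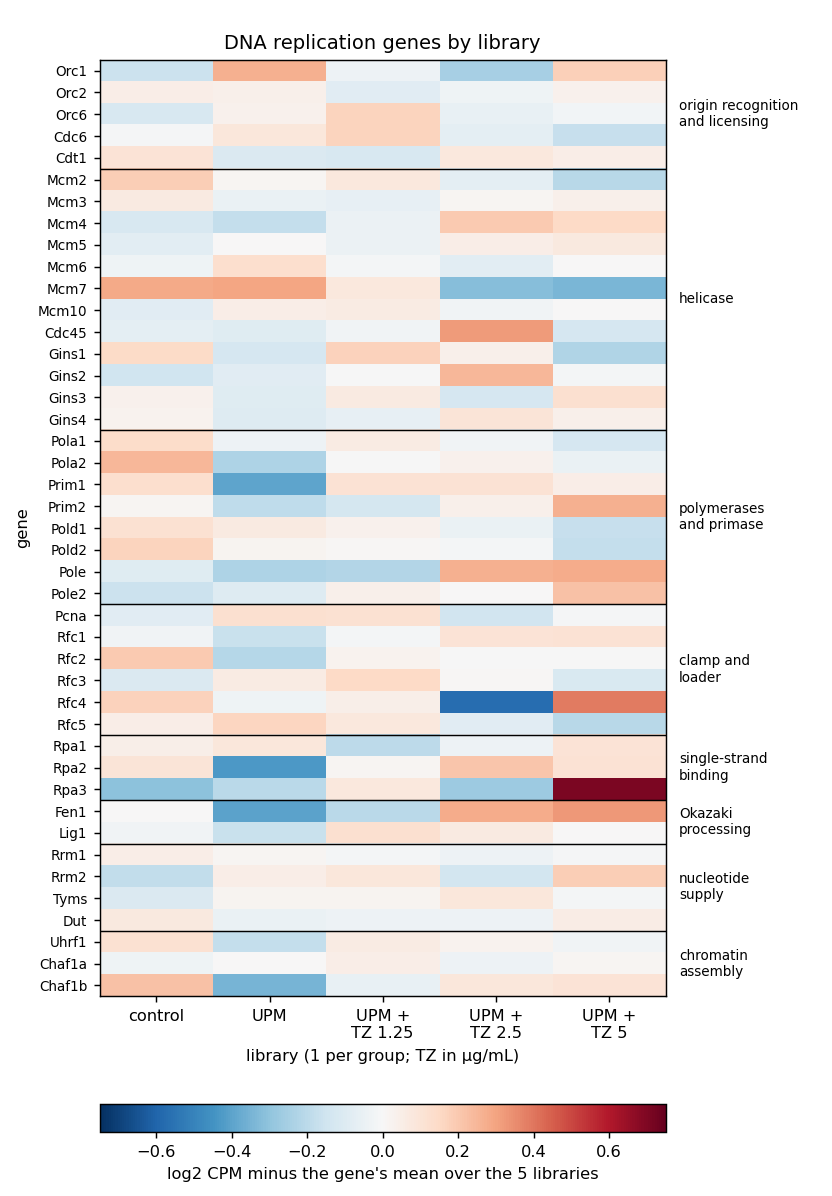
Each row is 1 gene and each column 1 library, and colour gives log2 CPM minus the mean of that gene over the 5 libraries, with genes grouped by role. Mcm7 is lowest in TZ 2.5 and TZ 5, Fen1, Rpa2, Prim1 and Chaf1b are lowest in UPM, and Rpa3 is highest in TZ 5.

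Because each group is 1 library, a gene was called between 2 libraries by size and counting error, with no replicate check: a fold of at least 1.5 either way, a 95% exact conditional binomial interval off 1 and a mean of at least 10 CPM. All 43 members passed that minimum in each of the 5 comparisons. Separately, the UPM and TZ dose effects were tested in a fit of all 5 libraries with edgeR's quasi-likelihood test, with a UPM term and a linear TZ dose term. With 1 library per dose, the residual in this fit is departure from a straight line in dose. It does not measure spread between replicate cultures. Dose estimates are the fitted log2 change from 0 to 5 µg/mL, with Benjamini-Hochberg adjusted p over 12381 genes. Comparisons with UPM share the UPM library, so they are not independent of each other or of UPM against control.

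In UPM against control no member was called, and the lower values came from genes of several roles. Of the 43 members 0 were called higher and 0 lower, against 1.67% and 1.41% of the 8282 genes measured. The median log2 fold was -0.06, against 0.00 over all genes, and 26 of the 43 members were below 1, against 4215 of the 8282 genes. The counting interval lay wholly below 1 for 14 members (32.6%) and wholly above 1 for 2 (4.65%), which were Mcm6 and Pcna, against 18.6% and 15.4% of all genes. UPM was the lowest of the 5 libraries for 14 members (32.6%, against 23.3% of all genes), and the control was the highest for 14 (32.6%, against 21.8%). In the edgeR fit the UPM term called 0 members in either direction, against 0.0808% of genes higher and 0.0323% lower, and DESeq2 called 0 as well. At an unadjusted edgeR p under 0.05 the UPM term had 5 members (11.6%), all lower: Rpa2, Chaf1b, Rfc2, Fen1 and Pola2. Over all 12381 genes tested 7.79% passed that limit, 527 higher and 437 lower. Without the TZ 5 library the UPM term called Rpa2 lower (-0.47, edgeR adjusted p = 0.0306).

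In TZ 1.25 against UPM 0 members were called higher and 0 lower, against 1.19% and 1.03% of genes. In TZ 2.5 against UPM 2 were called higher, Fen1 and Rpa2, and 1 lower, Mcm7, against 2.67% and 1.73%. In TZ 5 against UPM 2 were called higher, Fen1 and Rpa3, and 1 lower, Mcm7, against 3.78% and 2.80%. In TZ 5 against control 1 was called higher, Rpa3, and 1 lower, Mcm7, against 3.55% and 2.51%. Median log2 folds of the members were 0.07, 0.01, 0.07 and 0.01 in these 4 comparisons, against 0.00, -0.01, 0.00 and 0.01 over all genes. In TZ 1.25 against UPM 30 of 43 members had a fold above 1 (69.8%, against 49.2% of all genes). There the counting interval lay wholly above 1 for 18.6% of members and wholly below 1 for 6.98% (all genes 14.4% and 15.5%). The same shares were 27.9% and 14.0% in TZ 2.5 against UPM (20.3% and 20.7%), 30.2% and 11.6% in TZ 5 against UPM (23.3% and 21.7%), and 16.3% and 18.6% in TZ 5 against control (21.9% and 22.4%). The TZ dose term called Fen1 higher and Mcm7 lower, which is 1 of 43 members in each direction, against 2.95% and 2.50% of genes. With 1 to 2 of 43 members called in a direction, the shares at the 1.5-fold limit and in the dose term are near those over all genes. Counts at a limit of 1.3 are given in the closing section.

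The factors that recognise and license origins held a near constant level. The sum of Orc1, Orc2, Orc6, Cdc6 and Cdt1 was between 308 and 320 CPM in the 5 libraries, with overlapping intervals. Cdt1, which brings the Mcm ring to origins, was at 118 CPM (control), 102 (UPM), 101 (TZ 1.25), 116 (TZ 2.5) and 114 (TZ 5). It was low in UPM and TZ 1.25, at 0.866-fold of the control (0.785 to 0.954) in UPM. Cdc6, its partner in loading, was at 45.5, 48.7, 51.6, 43.6 and 40.8 CPM in the same order, and 0.836-fold (0.714 to 0.979) in TZ 5 against UPM. Orc1, the ATPase subunit that comes and goes with the cycle, was sparse at 9.05, 12.2, 9.84, 8.52 and 11.5 CPM (59 to 93 counts). Its fold of 1.34 in UPM against control had an interval from 0.972 to 1.86. Orc2 and Orc6, constant parts of the complex, were at 103 to 113 CPM and 34.3 to 42.0 CPM.

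**Figure D2:**
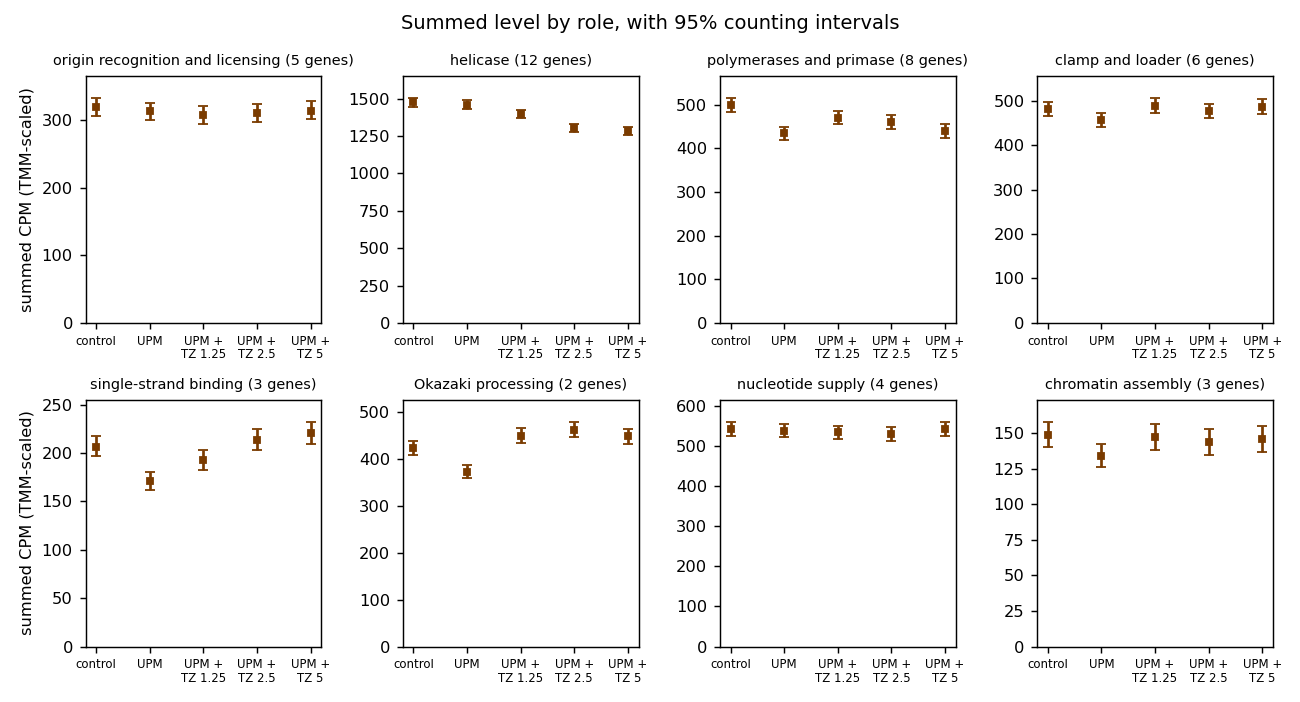
Each panel sums the TMM-scaled CPM of the members of 1 role in each library, with 95% exact Poisson intervals as bars and the y axis from 0. The helicase sum descends from 1474 in the control to 1282 in TZ 5, the single-strand binding and Okazaki sums are lowest in UPM, and the licensing and nucleotide sums stay level.

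Among the helicase genes, Mcm7 was lower in the cells given TZ. Mcm7 encodes 1 of the 6 subunits of the replicative ring. It was at 503 CPM in the control and 507 in UPM, then 436, 330.3 and 325 at the rising TZ doses. UPM was 1.01-fold of the control (0.963 to 1.05), TZ 1.25 was at 0.860-fold of UPM (0.820 to 0.902), and the 2 higher doses were called lower, at 0.652-fold (0.619 to 0.687) and 0.642-fold (0.609 to 0.676). Against the control TZ 5 was 0.646-fold (0.613 to 0.681). The dose term gave a log2 change of -0.66 (SE 0.12, edgeR adjusted p = 0.000163). It was called in 7 of 8 alternative fits, whose adjusted p ran from 4.84e-07 to 0.0637, and the exception was the fit without the UPM library (-0.50). Without TZ 5 the estimate was -1.24.

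The other subunits of the ring had a level sum. Mcm2 to Mcm6 together were at 698 CPM in control cells and 686 with UPM alone, and 677, 686 and 686 at the rising doses of TZ, with overlapping intervals. Of the counts of the 6 ring genes, Mcm7 made up 41.9% (95% exact binomial interval 40.9 to 42.9) in control cells and 42.5% (41.5 to 43.5) with UPM alone, and 39.2% (38.1 to 40.2), 32.5% (31.4 to 33.6) and 32.2% (31.1 to 33.3) at the rising doses of TZ. The intervals of TZ 2.5 and TZ 5 did not reach those of the other libraries. The sum of all 12 helicase genes was 1460 CPM in UPM and 1282 in TZ 5, but without Mcm7 it was 954 and 957. This sum and the share were computed after Mcm7 was seen to stand apart.

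Within the ring Mcm2 and Mcm4 leaned in opposite directions. Mcm2, the subunit that also binds histones, was at 149 CPM in the control and 133 in UPM, then 139, 125 and 114 at the rising TZ doses. It was lowest in TZ 5, at 0.761-fold of the control (0.694 to 0.834). Mcm4 was at 72.8, 69.8, 76.5, 90.4 and 87.6 CPM, higher in TZ 2.5 and TZ 5 than in the rest, and 1.26-fold (1.12 to 1.41) in TZ 5 against UPM. Neither passed the dose test (log2 change -0.26, SE 0.13, edgeR adjusted p = 0.276 for Mcm2 and 0.33, SE 0.15, edgeR adjusted p = 0.212 for Mcm4). Mcm6 was highest in UPM (194 CPM, against 167 to 177 elsewhere). Mcm3 and Mcm5 stayed within 1.09-fold and 1.11-fold over all libraries.

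The factors that activate the ring showed no call. Gins1, of the GINS complex, was at 53.9 CPM in control cells and 44.8 with UPM alone, and 55.0, 50.2 and 41.8 at the rising doses of TZ, and so was low in UPM and TZ 5. Cdc45 was at 22.0 to 23.7 CPM in 4 libraries and at 30.02 in TZ 2.5, and Gins2 was also highest there (31.5 CPM). Gins3, Gins4 and Mcm10, which helps Cdc45 bind, had a highest-to-lowest ratio of 1.19, 1.14 and 1.11.

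Promoter sequences are shown because E2F factors are the best known common regulators of this machinery. RefSeq promoters (GRCm38.p6, 250 bases before to 50 after the start) were listed for 36 of the 43 members. An E2F-type site, searched on both strands as TTTCCCGC, TTTCGCGC, TTTGCCGC or TTTGGCGC, was present for 14 of them (38.9%), against 2.60% of 27025 genes with a listed promoter. CCAAT, a common promoter element that may lie beside such sites, was present for 24 (66.7%), against 41.1%. The promoters below are those of Mcm7, called lower with TZ, of Mcm3, a ring gene of near constant level, and of Fen1 and Rpa2, called higher. Capitals mark the E2F-type sites. For Mcm7 and Fen1, with 2 listed starts each, the start with the most sites, or else the first listed, is shown.
Mcm7, chr5:138171834-138172133, minus strand: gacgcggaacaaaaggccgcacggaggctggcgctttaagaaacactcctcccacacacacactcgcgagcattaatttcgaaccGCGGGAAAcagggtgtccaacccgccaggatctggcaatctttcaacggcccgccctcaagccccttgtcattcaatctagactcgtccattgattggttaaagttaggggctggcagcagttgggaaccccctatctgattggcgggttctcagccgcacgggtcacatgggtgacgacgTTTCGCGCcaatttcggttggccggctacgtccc
Mcm3, chr1:20820263-20820562, minus strand: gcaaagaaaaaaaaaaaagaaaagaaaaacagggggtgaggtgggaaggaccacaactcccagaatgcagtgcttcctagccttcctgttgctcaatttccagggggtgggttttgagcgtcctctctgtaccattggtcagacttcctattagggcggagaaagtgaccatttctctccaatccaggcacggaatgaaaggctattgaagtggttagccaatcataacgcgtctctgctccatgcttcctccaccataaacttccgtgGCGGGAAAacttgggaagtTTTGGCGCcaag
Fen1, chr19:10204344-10204643, minus strand: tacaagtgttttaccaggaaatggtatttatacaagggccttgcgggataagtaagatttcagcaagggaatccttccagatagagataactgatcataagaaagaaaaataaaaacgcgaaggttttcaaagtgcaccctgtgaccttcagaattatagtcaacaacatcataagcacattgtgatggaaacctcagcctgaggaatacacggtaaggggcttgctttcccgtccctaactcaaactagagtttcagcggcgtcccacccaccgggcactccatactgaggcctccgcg
Rpa2, chr4:132768110-132768409, plus strand: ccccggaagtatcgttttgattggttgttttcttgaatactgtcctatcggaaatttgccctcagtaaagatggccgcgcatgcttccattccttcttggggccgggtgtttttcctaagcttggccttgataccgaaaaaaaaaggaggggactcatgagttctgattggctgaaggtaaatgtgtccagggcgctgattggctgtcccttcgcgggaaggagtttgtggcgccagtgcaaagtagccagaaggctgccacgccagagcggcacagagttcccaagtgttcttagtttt
Mcm7 and Mcm3 each carried 2 sites, and no such letters were found in these windows of Fen1 and Rpa2. The 14 members with a site had a median log2 fold of -0.01 in TZ 5 against UPM and a range of 0.642-fold to 1.25-fold. The 22 without had a median of 0.02 and a range of 0.774-fold to 1.88-fold. The ranges of the groups with and without a site overlapped. A match describes letters only, and no match says only that these letters are not in this window.

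Fen1, the flap nuclease that trims Okazaki fragments, was higher with TZ. It was at 75.9 CPM (control), 57.4 (UPM), 65.8 (TZ 1.25), 92.1 (TZ 2.5) and 95.1 (TZ 5). The UPM library was the lowest and the 2 higher doses stood above the control. Fen1 was called higher than in UPM at 1.61-fold (1.42 to 1.82) in TZ 2.5 and 1.66-fold (1.47 to 1.88) in TZ 5, while TZ 5 against control was 1.25-fold (1.12 to 1.40). The dose term gave 0.75 (SE 0.15, edgeR adjusted p = 0.00118). It was called in 7 of 8 alternative fits, with adjusted p from 0.000121 to 0.0810, and the exception was again the fit without the UPM library (0.60). Without TZ 5 the estimate was 1.37. Lig1, the ligase that seals the same fragments, was at 347, 315, 384, 370.5 and 353 CPM, lowest in UPM, and 1.12-fold (1.06 to 1.19) in TZ 5 against UPM.

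**Figure D3:**
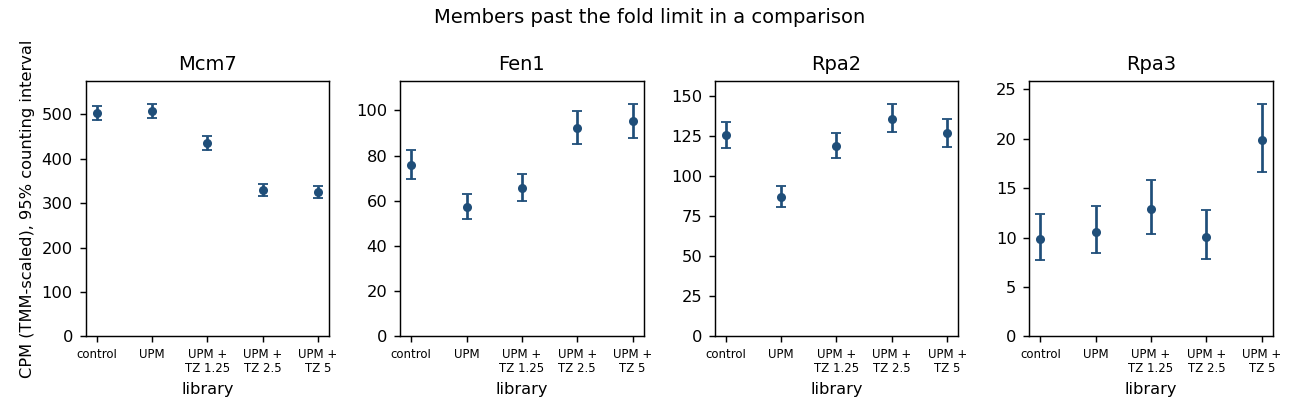
TMM-scaled CPM of the 4 members called in any comparison, by library, with 95% exact Poisson intervals and each y axis from 0. Mcm7 steps down from 507 in UPM to 325 in TZ 5, Fen1 and Rpa2 dip in UPM, and Rpa3 is at 19.9 in TZ 5 against 9.85 to 12.9 in the other libraries.

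The 3 genes of RPA, the complex that protects single-stranded DNA, had different patterns. Rpa2, its middle subunit, was at 126 CPM in the control and 87.3 in UPM, then 119, 136 and 127 at the rising TZ doses. Only the UPM library was low, at 0.695-fold of the control (0.628 to 0.768), and Rpa2 was called at 1.56-fold (1.41 to 1.72) in TZ 2.5 against UPM, while TZ 5 against control was 1.01-fold (0.919 to 1.11). Its dose term was 0.46 (SE 0.15, edgeR adjusted p = 0.0514). Over the 8 alternative fits its adjusted p ran from 0.000405 (without TZ 5) to 0.937 (without UPM), and it was also called higher without TZ 1.25, with no filter and with dose as rank. Rpa3, the small subunit, was at 9.85, 10.6, 12.9, 10.1 and 19.9 CPM (74, 81, 93, 70 and 137 counts). TZ 5 alone was high, at 1.88-fold of UPM (1.42 to 2.50) and 2.02-fold of the control (1.51 to 2.71), with a dose term of 0.86 (SE 0.29, edgeR adjusted p = 0.0670). The dose term rested on the TZ 5 library: without it the estimate was -0.13 (edgeR adjusted p = 0.971), and without TZ 1.25 it was called (0.94, edgeR adjusted p = 0.0396). Rpa1, the large subunit, was at 71.1, 73.1, 60.3, 67.3 and 74.0 CPM and was lowest in TZ 1.25 (0.825-fold of UPM, 0.726 to 0.937).

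Primase and polymerase genes had folds below 1 in UPM against control in 7 of 8 cases, with no call. The counting interval lay below 1 for 3 of the 8. Over all genes 4215 of 8282 had a fold below 1. Prim1, the catalytic primase subunit, was at 35.5 CPM in control cells and 24.8 with UPM alone, and 35.2, 35.1 and 33.8 at the rising doses of TZ. Here too UPM alone was low, at 0.699-fold of the control (0.577 to 0.845). Pola2, the second subunit of polymerase alpha, was at 36.6, 26.3, 30.8, 31.5 and 29.7 CPM, again lowest in UPM. Pole, the catalytic subunit of the leading-strand polymerase, was at 17.4, 15.8, 15.9, 22.4 and 22.5 CPM, and the 2 higher doses stood above the other libraries (TZ 5 against UPM 1.42-fold, 1.11 to 1.82, dose term edgeR adjusted p = 0.194). Its partner Pole2 was at 17.0, 17.8, 19.5, 19.1 and 22.2 CPM, highest in TZ 5. Pold1, the catalytic subunit of polymerase delta, leaned the other way, at 30.1, 29.1, 28.4, 26.8 and 24.7 CPM (TZ 5 against UPM 0.846-fold, 0.689 to 1.04). Pola1 and Pold2 were also lowest in TZ 5 (256 and 28.0 CPM), and Prim2 was highest there (22.6 CPM).

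The sliding clamp itself varied little, and its loader genes differed from each other. Pcna was at 59.4 CPM (control), 68.2 (UPM), 68.2 (TZ 1.25), 57.0 (TZ 2.5) and 62.4 (TZ 5), and 1.15-fold (1.01 to 1.31) in UPM against control. Rfc2, a small loader subunit, was at 82.5, 62.1, 73.3, 71.7 and 71.8 CPM, lowest in UPM (0.752-fold of the control, 0.666 to 0.849). Rfc5 was at 63.8, 69.0, 65.1, 58.2 and 53.4 CPM and lowest in TZ 5 (0.774-fold of UPM, 0.675 to 0.885, dose term edgeR adjusted p = 0.165). Rfc4 was at 19.8, 17.2, 18.2, 11.8 and 23.1 CPM, with the lowest and highest values at neighbouring doses. Rfc1, the large subunit, was at 195 CPM in UPM and 215 to 236 elsewhere, and Rfc3 had a ratio of 1.20 between its highest and lowest library.

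The nucleotide supply genes varied little. Rrm1, Rrm2, Tyms and Dut summed to 530.0 to 542 CPM in the 5 libraries, and none had a counting interval off 1 in any comparison with UPM or in UPM against control. Rrm2, the S-phase subunit of ribonucleotide reductase, was at 22.9 CPM in the control and 26.9 in UPM, then 27.6, 23.7 and 29.6 at the rising TZ doses. TZ 5 was 1.099-fold of UPM (0.901 to 1.34) and 1.29-fold of the control (1.05 to 1.59). Tyms, thymidylate synthase, was at 105, 115, 115, 120.4 and 112 CPM, and Dut, which removes dUTP, at 127, 117, 118, 117.5 and 125 CPM. Rrm1 lay between 268 and 286 CPM.

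Of the chromatin genes, Chaf1b, a CAF-1 subunit, was at 28.4 CPM in control cells and 19.1 with UPM alone, and 23.4, 25.8 and 26.1 at the rising doses of TZ. Its fold of 0.673 in UPM against control (0.541 to 0.835) was the lowest of all members there and lay just short of the 1.5-fold limit, which it passed when all libraries were thinned to the smallest total. Its partner Chaf1a was level, at 80.4, 82.2, 85.0, 80.0 and 83.1 CPM. Uhrf1, which reads hemimethylated DNA after the fork, was at 39.9 CPM in the control, 32.5 in UPM and 36.3 to 38.5 with TZ.

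**Figure D4:**
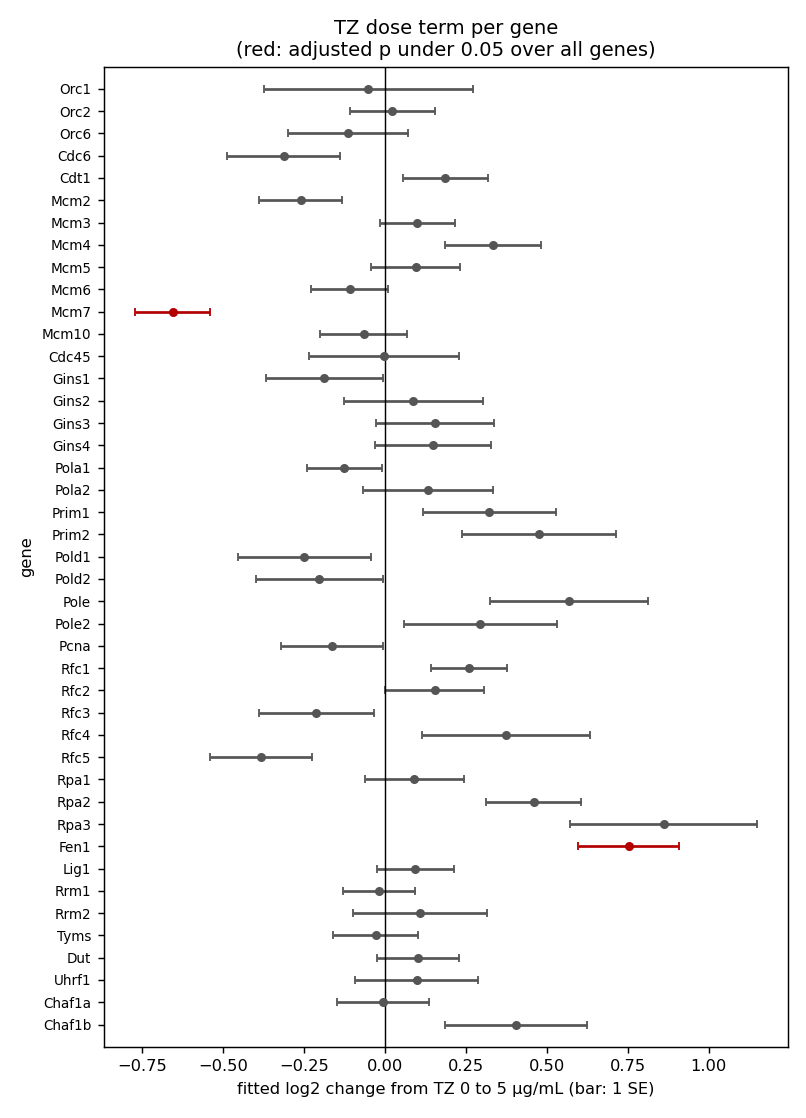
Points give the fitted log2 change of each member from TZ 0 to 5 µg/mL in the 5-library edgeR fit, with bars of 1 SE, and red marks an adjusted p under 0.05 over all genes. Mcm7 (-0.66) and Fen1 (0.75) are the red points, and most of the others lie within 0.4 of 0.

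Other genes of the pathway gave these calls. In a list of 52 further replication factors the dose term called 2 of 50 tested higher and 0 lower, against 2.95% and 2.50% of all genes. These were Clspn, the checkpoint mediator claspin (79.3 CPM in UPM, 112 in TZ 5, log2 change 0.48, SE 0.14, edgeR adjusted p = 0.0307), and Top1, which relieves supercoils (504 and 658 CPM, 0.41, SE 0.11, edgeR adjusted p = 0.0114). By fold, Recql4 was called higher at 1.70-fold (1.22 to 2.38) and Slbp, which binds histone mRNA, lower at 0.649-fold (0.463 to 0.904) in TZ 1.25 against UPM. That was 1 of 47 measured in each direction, against 1.19% and 1.03% of genes. Both lay near the minimum of 10 CPM. Recql4 was at 9.72 CPM (control), 7.84 (UPM), 13.3 (TZ 1.25), 11.4 (TZ 2.5) and 11.6 (TZ 5). Slbp was at 8.79, 12.8, 8.32, 12.8 and 10.0 CPM in the same order. The list had 0 called in the other 4 comparisons.

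Among genes that control entry into S phase, the dose term called 4 higher and 3 lower of 33 tested, against 2.95% and 2.50% of all genes. The other 26 did not pass, and the list had a median log2 change of -0.01. Those that rose were the inhibitors Cdkn1b (0.91, edgeR adjusted p = 0.00437), Cdkn2d (0.57, edgeR adjusted p = 0.0229) and Cdkn2a (0.48, edgeR adjusted p = 0.0369), and the cyclin gene Ccne2 (0.53, edgeR adjusted p = 0.0438). Those that fell were the p53 target and inhibitor Cdkn1a (-0.90, edgeR adjusted p = 2.53e-07), Cdk4 (-0.43, edgeR adjusted p = 0.0417) and its partner cyclin Ccnd1 (-0.35, edgeR adjusted p = 0.0494). Cdkn1a was at 547 CPM (control), 394 (UPM), 320.3 (TZ 1.25), 267 (TZ 2.5) and 210.3 (TZ 5), and the UPM term called it lower too (-0.52, SE 0.10, edgeR adjusted p = 0.00801). Cdkn2a was at 132, 87.2, 121, 135 and 129.7 CPM, lowest in UPM, and was called lower there than in the control (0.661-fold, 0.599 to 0.730) and higher in TZ 2.5 than in UPM (1.54-fold, 1.40 to 1.71). Also called were Cdkn1b, higher in TZ 2.5 and TZ 5 than in UPM (1.74-fold and 1.85-fold) and in TZ 5 than in the control (1.53-fold), Cdkn2d, higher in TZ 5 than in UPM (1.505-fold), and Skp2, a ubiquitin ligase subunit that targets p27, lower in TZ 5 than in UPM (0.658-fold). Cdkn1a was called lower in TZ 5 than in UPM (0.534-fold) and than in the control (0.385-fold).

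The neighbouring programmes of the cycle gave these values. Of 40 genes of mitosis the dose term called 4 lower (Bub1b, Cdc20, Cenpa and Plk1) and 1 higher (Cdc25b), against 2.50% and 2.95% of all genes, with a median log2 change of -0.06, against 0.09 for the replication genes and 0.01 over all genes. The difference between the lists was not tested. Histone genes of the replication-dependent class, whose mRNA mostly lacks poly(A), summed to 439 CPM in the control and 450.5 in UPM, then 398, 337 and 306 at the rising TZ doses. Of 25 tested the dose term called 4 lower (H1f4, H1f5, H2ac20 and H2ac8) and 0 higher, against 2.50% and 2.95% of all genes. By fold, H2ac20 and H2ac8 were called lower in TZ 2.5 and in TZ 5 against UPM, H1f3 in TZ 2.5 and H1f5 in TZ 5. In TZ 5 against control the 3 called lower were H1f5, H2ac20 and H2ac8. Of the 67 histone genes only 8 reached the CPM minimum in TZ 2.5 against UPM. Only 6 reached it in TZ 5 against UPM, and 6 in TZ 5 against control. Over all genes 1.73%, 2.80% and 2.51% were called lower in these 3 comparisons. Like Mcm7, the histone sum was lower than in UPM at each of the TZ doses. The share of small nucleolar RNAs was also below UPM with TZ, and lowest at 2.5 and 5 µg/mL. Their part in the values of Mcm7 was not tested.

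Some members share their locus with another gene, and the sources used here do not say how strand was counted, so these values are uncertain. Besides Mcm7, Fen1 and Rfc4, given below, protein-coding genes overlap Orc1, Cdc45, Gins2, Pold2, Pole2, Rpa1, Lig1 and Chaf1a in RefSeq. Orc2, Gins1, Pola1, Prim2, Pold1 and Pole overlap only non-coding genes or pseudogenes. Ufd1, which overlaps Cdc45, was at 63.5 to 82.1 CPM, and Zswim9, which overlaps Lig1, at 4.70 to 7.05 CPM. Ap4m1, which overlaps Mcm7 in RefSeq, was at 6.27 to 12.8 CPM and was lowest in UPM, and the 3 miRNA genes inside Mcm7 were listed at 0. Tmem258, which overlaps Fen1, was at 110.5, 121, 124, 96.4 and 108 CPM, with UPM above TZ 2.5 and TZ 5. Eif4a2, which overlaps Rfc4, was at 15.2, 11.6, 13.3, 13.6 and 20.5 CPM. Both genes were highest in TZ 5, but Eif4a2 was lowest in UPM and Rfc4 in TZ 2.5.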

How the data were processed

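The authors deposited raw counts per gene symbol, 1 table per library, as whole numbers with no normalization. QuantSeq libraries were made from total RNA, per the labels' protocols. STAR, edgeR and GRCm39 are named without versions, per the submitters' processing notes. The sources used here do not name the counting program, annotation or strand setting.

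Counts were scaled to CPM with TMM factors (0.991 to 1.01) over all genes. Folds between 2 libraries carry 95% exact conditional binomial intervals. Genes passing filterByExpr (12381) were tested with edgeR 4.0.16 (limma 3.58.1, R 4.3.3), by the quasi-likelihood test with Benjamini-Hochberg adjustment and a limit of 0.05. With 2 residual and 48.7 prior degrees of freedom, p-values rest mostly on spread shared across genes; the control library is fitted exactly by the UPM term, so its own spread is unknown. SE is the estimate over the square root of F. DESeq2 1.42.0 was an alternative. Both rules were also run on simulated data with planted dose changes and the same spread for every gene. For the fold rule only recovery of planted changes was counted, not false calls. No result here rests on these simulations. Members and lists were chosen with earlier results of these data known. By the rule for named genes, given with all values were members called anywhere, the highest and lowest of each role in UPM against control and TZ 5 against UPM, and Pcna, Mcm2 and Rrm2. Members given in addition were chosen after their values were seen. From the other lists, called genes are named, up to 4 per list, direction and comparison. Promoters are of GRCm38.p6, an earlier build than the authors', and serve for sequence only.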

Additional observations from a re-analysis of the deposited data

How the results depend on the processing

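No paired analysis was possible because each group is 1 library. The control could not be left out, since the UPM term needs it. With a mean CPM minimum of 1, all genes called higher and lower numbered 544 and 413 in UPM against control, 409 and 400 in TZ 1.25 against UPM, 598 and 430 in TZ 2.5 against UPM, 667 and 551 in TZ 5 against UPM, and 692 and 463 in TZ 5 against control, while the members' calls were the same in number. With a fold limit of 1.3 these counts were 462 and 450, 396 and 379, 715 and 619, 933 and 759, and 814 and 734. They are out of 8282, 8336, 8337, 8367 and 8340 genes measured, in the same order. Of the 43 members, those called at 1.3 numbered 6 lower in UPM against control and 2 higher in TZ 1.25 against UPM. They numbered 6 higher and 3 lower in TZ 2.5 against UPM, and 8 higher and 1 lower in TZ 5 against UPM. In TZ 5 against control they were 2 higher and 2 lower. Thinned to the smallest total, 1 member was called lower in UPM against control, Chaf1b. Calls of the UPM term over all genes were 5 higher and 1 lower by DESeq2's Wald test, 21 and 13 with no filter, and 19 and 7 with dose as rank. Leaving out 1 library at a time gave 8 to 35 higher and 6 to 45 lower, and 0 to 1 members lower (Rpa2 without TZ 5, edgeR adjusted p = 0.0306). The dose term called 169 genes higher and 146 lower by DESeq2, and 2 members higher with no filter and with dose as rank, the added one being Rpa2. Leaving out 1 library gave 115 to 303 higher and 94 to 273 lower, with 0 to 3 members higher and 0 to 1 lower. Both zeros came from the fit without UPM (115 and 94 genes) and the cause was not tested; the 3 came without TZ 1.25, where Rpa2 and Rpa3 were added. Without TZ 5 the counts were 215 and 155. No call of a member changed sign under these alternatives. Among the 26 members named by the rule, 12 uncalled estimates changed sign in the dose term in at least 1 alternative, Rpa3, Rfc4, Lig1 and Prim1 among them, and 8 in the UPM term. Outside those 26, the dose estimates of Cdc45, Gins2, Gins3, Orc2, Pola1, Pola2, Rrm1 and Uhrf1 also took both signs. So did the UPM estimates of Cdc45 and Rfc1. Counts of Rpa3 (70 to 137) and Orc1 (59 to 93) limit what depth can show for those genes.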
